A study of Mus musculus with 6 samples.

Results

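The proteasome is the barrel-shaped protease that degrades ubiquitin-tagged proteins, and its genes were followed here in T cells that kept or had lost a Foxp3 reporter after transfer into mice. The members were all genes with a single annotated symbol that begins with Psm, a letter from a to g and a number, which gave 49 of the 18193 genes with a single symbol on the array. These genes had 103 probe sets, and the brightest one of each gene on average over the 6 arrays stood for it. Of these genes, 4 encode interferon-inducible parts (Psmb8, Psmb9, Psmb10 and Psme1) and 43 encode constitutive subunits, assembly chaperones and regulators. The remaining 2, Psmc3ip and Psme3ip1, carry the prefix but encode interacting proteins and were kept apart. Psme2, whose product pairs with that of Psme1, is not analysed here, since its probe set is annotated to more than 1 gene.

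The arrays (Affymetrix Mouse430_2) measured RNA from 3 sorted populations of the same hosts, BALB/c mice deficient in Rag1, which make no T or B cells of their own. The labels' treatment was wild-type nTreg plus wild-type iTreg cells, with 500000 iTreg cells made in culture and naturally arising nTreg cells injected together. On day 125, spleen and mesenteric lymph node cells of 14 treated mice were sorted and pooled, so no population is represented by single animals. The ex-iTreg cells were Thy1.1+ and EGFP-, the iTreg cells Thy1.1+ and EGFP+, and the nTreg cells Thy1.1- and EGFP+. EGFP reports Foxp3, the regulatory T cell transcription factor, and Thy1.1 marks descent from the injected iTreg cells. The Rag1 deficiency of the hosts and the mixed transfer are shared by all 3 groups.

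Each population has 2 arrays, called pool 1 and pool 2. Nothing in the labels tells if separate mice went into them, so p-values here cover pool-to-pool spread that could be technical alone. The array could not check the reporter through Foxp3 itself, whose level lay between 3.99 and 4.29 on all 6 arrays, under the filter level of 5.48. Il2ra, the interleukin-2 receptor alpha chain that regulatory T cells carry, read 6.69 and 6.84 in ex-iTreg, 9.95 and 9.95 in iTreg and 10.06 and 9.98 in nTreg. The 7 measured T cell markers were above the filter level in all 3 populations. On the linear scale they summed to 24456 to 24613 in ex-iTreg, 28122 to 29133 in iTreg and 29168 to 29871 in nTreg. In ex-iTreg 2 were lower than in iTreg, and 1 was higher and 4 lower than in nTreg (limma). In iTreg 1 was higher than in nTreg. These were 28.6%, 71.4% and 14.3% of the 7, beside 36.6%, 37.4% and 29.1% of all genes tested in the same comparisons. Medians of the arrays lay between 5.47 and 5.49. Myeloid markers summed, on the linear scale, to 3871 to 3947 in ex-iTreg, 6180 to 6267 in iTreg and 3283 to 3378 in nTreg, and Itgam was under the filter level in every group. Of the B cell markers, Cd79a, Pax5, Blk, Fcrla and Ebf1 were under that level in every group, but 2 of the 3 that passed the filter were lower in ex-iTreg than in iTreg and nTreg and in iTreg than in nTreg (limma). Cd79b, of the B cell receptor, read 4.50 and 4.80 in ex-iTreg, 6.38 and 6.56 in iTreg and 7.79 and 7.52 in nTreg. Ms4a1, a B cell surface protein, read 4.31 and 4.22 in ex-iTreg, 4.60 and 4.63 in iTreg and 5.64 and 5.79 in nTreg. B cell markers summed to 207 to 227 in ex-iTreg, 287 to 311 in iTreg and 449 to 466 in nTreg. Both tested erythroid markers were lower in ex-iTreg than in iTreg and higher in iTreg than in nTreg. Of 10 tested cycling markers, 2 were higher and 6 lower in ex-iTreg than in iTreg. In ex-iTreg 7 were lower than in nTreg, and in iTreg 3 were lower than in nTreg. These were 80%, 70% and 30% of the 10, beside 36.6%, 37.4% and 29.1% of all genes, so the last was near the background. Of 2 tested dendritic cell markers, 1 was lower in ex-iTreg than in iTreg and 1 was higher in iTreg than in nTreg. Where any were called, the shares were 66.7% of the B cell, 100% of the erythroid and 50% of the dendritic cell markers tested, beside the same background. In bulk RNA of this kind, fewer cells of a type and less RNA per cell cannot be told apart.

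The catalytic core of the proteasome is a stack of alpha and beta rings, capped by a regulatory particle in which ATPases unfold the substrate and other subunits bind ubiquitin and remove it. Interferon gamma induces replacements for the catalytic beta subunits, Psmb8 for Psmb5, Psmb9 for Psmb6 and Psmb10 for Psmb7, and also the cap formed by Psme1 and Psme2. The resulting immunoproteasome is abundant in lymphocytes even without infection and yields peptides suited to MHC class I presentation.

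The promoters of the inducible genes and of a constitutive counterpart are shown because the interferon inducibility of these genes is the reason to hold them apart. They are 300 bases each from RefSeq (GRCm38.p6), with 250 bases before the annotated start and 50 after it, printed 5' to 3' on the gene's strand, and 41 of the 49 members matched that table. Psmb8 lies on the plus strand (chr17:34197945-34198244), Psmb9 on the minus strand (chr17:34187281-34187580), Psme1 on the plus strand (chr14:55578244-55578543) and Psmb5 on the minus strand (chr14:54617946-54618245). Capitals mark matches to 1 of 2 motifs.
Psmb8: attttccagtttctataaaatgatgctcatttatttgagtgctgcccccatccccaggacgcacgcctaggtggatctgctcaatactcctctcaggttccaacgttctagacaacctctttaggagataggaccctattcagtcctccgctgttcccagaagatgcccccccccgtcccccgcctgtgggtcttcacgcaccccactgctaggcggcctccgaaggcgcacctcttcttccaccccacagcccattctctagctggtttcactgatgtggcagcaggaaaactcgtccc
Psmb9: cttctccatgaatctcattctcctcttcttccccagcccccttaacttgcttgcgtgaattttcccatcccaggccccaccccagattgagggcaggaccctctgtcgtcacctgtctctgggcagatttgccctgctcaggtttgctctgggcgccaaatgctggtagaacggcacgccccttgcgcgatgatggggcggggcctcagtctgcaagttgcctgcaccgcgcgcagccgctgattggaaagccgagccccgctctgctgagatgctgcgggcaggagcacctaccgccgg
Psme1: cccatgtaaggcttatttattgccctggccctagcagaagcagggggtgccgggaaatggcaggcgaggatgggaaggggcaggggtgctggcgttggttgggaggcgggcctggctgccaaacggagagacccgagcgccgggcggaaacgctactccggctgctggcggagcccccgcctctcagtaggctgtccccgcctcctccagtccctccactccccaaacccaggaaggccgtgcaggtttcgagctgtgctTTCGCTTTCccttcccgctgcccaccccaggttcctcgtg
Psmb5: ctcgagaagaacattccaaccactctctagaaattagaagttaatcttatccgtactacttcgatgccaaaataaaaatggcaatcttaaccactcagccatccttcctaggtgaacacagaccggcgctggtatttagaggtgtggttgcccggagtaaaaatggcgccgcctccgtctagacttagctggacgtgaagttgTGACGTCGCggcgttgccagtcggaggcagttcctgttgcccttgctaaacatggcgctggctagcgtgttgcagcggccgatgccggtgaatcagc

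The motifs, searched on both strands and chosen after the values were known, were the interferon regulatory factor type site GAAANNGAA and the antioxidant response type site TGACNNNGC, neither of which contains the other. Psme1 held the first in reverse complement from base 11 to base 19, counted from the start, and Psmb5 held the second from base -47 to base -39. The printed Psmb8 and Psmb9 windows and that of Psmb10 on chromosome 8 held neither. In the 44 member promoters the motifs were found in 7 and 6 of them, or 15.9% and 13.6%, against 8.56% and 12.4% of all 32851 promoters of that length. These matches describe letters in a window and do not show binding. On chromosome 17 the gene order is Psmb9, Tap1, Psmb8 and Tap2, which puts 2 inducible subunits beside the genes of the transporter that carries proteasome-made peptides into the endoplasmic reticulum.

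All 4 inducible members read highest in iTreg, and in ex-iTreg they were lowest or close to nTreg. In ex-iTreg against iTreg, 3 of the 4 fell and 0 rose (limma adjusted p at 0.05), with a median difference of -0.28 on the log2 scale. Over all 11015 genes tested, 36.6% were called in that comparison, 15.6% higher and 21% lower, with a median of -0.02. In ex-iTreg against nTreg, 1 of the 4 fell and the median was -0.09, where 37.4% of all genes were called, 18.4% higher and 19% lower, with a median of 0.03. In iTreg against nTreg, 1 of the 4 rose and the median was 0.17, where 29.1% of all genes were called, 16.4% higher and 12.7% lower, with a median of 0.04. The 3 comparisons share arrays, so their results are not separate pieces of evidence.

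Psmb9, which replaces the caspase-like beta subunit, read 11.40 and 11.36 in ex-iTreg pools, 11.77 and 11.75 in iTreg pools and 11.64 and 11.60 in nTreg pools on the log2 scale. Every ex-iTreg pool lay under every other pool, and the 3 populations did not overlap. Separation of that kind was common with 2 arrays per group. Among all 11015 genes, 32.9% had ex-iTreg pools all above those of iTreg and 39.9% all below. Against nTreg, ex-iTreg pools lay all above for 38.1% and all below for 33%, and iTreg pools for 39.2% and 28.7%. The difference of ex-iTreg minus iTreg was -0.38 ± 0.06 (SE, n = 2 each, limma adjusted p = 0.00492), or 1.30-fold lower, and it passed in all 15 alternative settings. Against nTreg, Psmb9 fell by 0.24 (SE 0.06, limma adjusted p = 0.0251). That call was lost without any 1 of the 4 ex-iTreg and nTreg pools, at adjusted p between 0.0542 and 0.132, while the difference stayed between -0.26 and -0.22. In iTreg minus nTreg the difference was 0.14 (limma adjusted p = 0.144).

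Psmb10, which replaces the trypsin-like subunit, read 11.09 and 11.10 in ex-iTreg, 11.45 and 11.45 in iTreg and 11.12 and 11.17 in nTreg. The iTreg pools stood above all others, and those of ex-iTreg lay just under those of nTreg. In ex-iTreg minus iTreg the difference was -0.36 ± 0.06 (limma adjusted p = 0.00563), 1.28-fold lower and called in all 15 alternatives. Against nTreg, ex-iTreg differed by -0.05, with a 95% interval of -0.20 to 0.10. Psmb10 rose in iTreg against nTreg by 0.31 ± 0.06 (limma adjusted p = 0.0131). Without iTreg pool 1 or iTreg pool 2 that call was lost, at adjusted p between 0.0596 and 0.0646.

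Psme1, a subunit of the cap that opens the core without ATP, read 12.20 and 12.16 in ex-iTreg, 12.37 and 12.38 in iTreg and 12.31 and 12.30 in nTreg. The populations did not overlap and ex-iTreg was lowest. Its fall in ex-iTreg against iTreg was -0.20 ± 0.06 (limma adjusted p = 0.0428), the smallest called among the inducible members. Leaving out any 1 of the 6 arrays ended the call, with adjusted p between 0.0503 and 0.184 and a difference between -0.22 and -0.18. Against nTreg the ex-iTreg difference was -0.12, with an interval of -0.27 to 0.02.

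Psmb8, which replaces the chymotrypsin-like subunit, read 12.39 and 12.31 in ex-iTreg, 12.52 and 12.56 in iTreg and 12.32 and 12.33 in nTreg. Only iTreg stood apart, and the ex-iTreg and nTreg pools overlapped. In ex-iTreg minus iTreg the difference was -0.18 ± 0.06 (limma adjusted p = 0.066), and in iTreg minus nTreg it was 0.21 (limma adjusted p = 0.054), so neither passed. A dimmer second probe set of Psmb8, with a mean of 7.42 and named for possible cross-hybridization, differed by -0.43 in ex-iTreg minus iTreg (limma adjusted p = 0.0233).

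**Figure D1:**
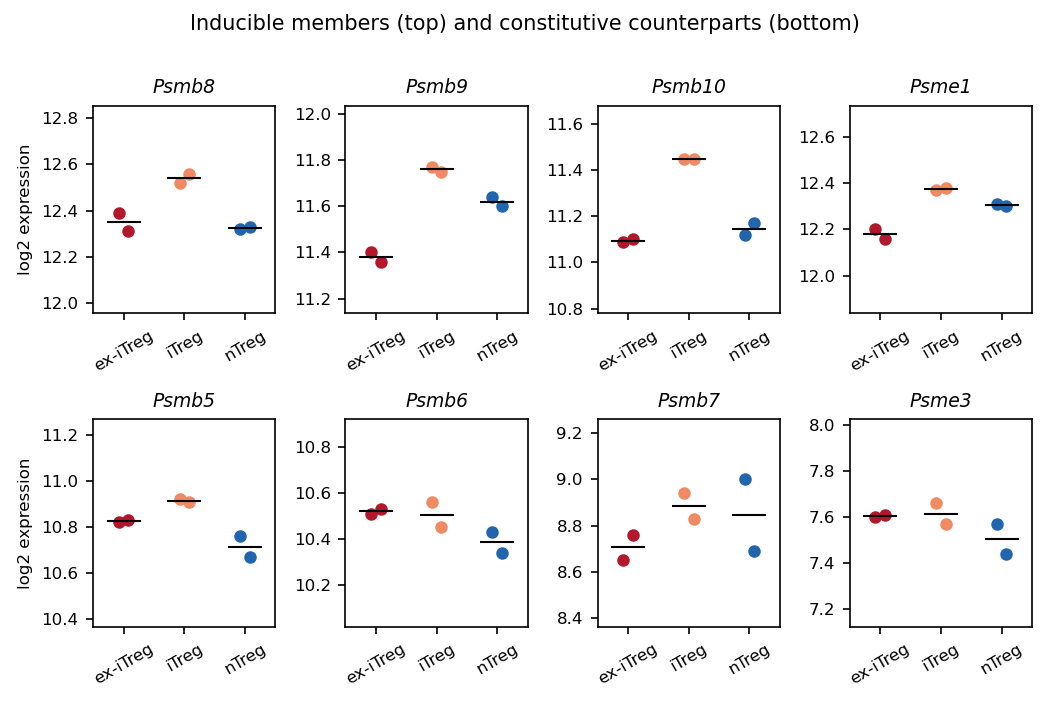
Log2 expression of the 4 inducible members (top row) and of Psmb5, Psmb6, Psmb7 and Psme3 (bottom row) in ex-iTreg, iTreg and nTreg. Points are single arrays, lines are means of 2 pools, and all panels span the same log2 distance around different levels. The 4 inducible members, and also Psmb5 and Psmb7, have ex-iTreg pools under those of iTreg. Of these, Psmb9, Psmb10 and Psme1 passed the test there, while no counterpart passed in any comparison.

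Of the counterparts in the core, Psmb6 read 10.51 and 10.53 in ex-iTreg, 10.56 and 10.45 in iTreg and 10.43 and 10.34 in nTreg. Its ex-iTreg and iTreg pools overlapped, and the difference of 0.02 had a 95% interval of -0.15 to 0.19. Psmb5 differed by -0.09 in ex-iTreg minus iTreg, with an interval of -0.25 to 0.06, and by 0.20 in iTreg minus nTreg (limma adjusted p = 0.060). Psmb7 differed by 0.31 between the 2 nTreg pools, the widest gap between pools of any constitutive member, and its ex-iTreg minus iTreg interval ran from -0.45 to 0.10. For Psmb5 and Psmb7 the ex-iTreg pools lay under those of iTreg, without overlap. Psme3, a nuclear cap subunit related to Psme1, differed by -0.01, with an interval of -0.19 to 0.17.

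Taking each inducible subunit minus the one it replaces within an array gives the change of the pair on the log2 scale, which has no test here. The change of Psmb9 minus Psmb6 was -0.40 in ex-iTreg against iTreg, -0.38 in ex-iTreg against nTreg and 0.02 in iTreg against nTreg. Within arrays this pair ran from 0.82 to 0.89 in ex-iTreg, from 1.21 to 1.30 in iTreg and from 1.21 to 1.26 in nTreg, so the ex-iTreg arrays lay apart. For Psmb10 minus Psmb7 the changes were -0.18, 0.09 and 0.27 in the same order of comparisons. Within arrays that pair ran from 2.34 to 2.44 in ex-iTreg, from 2.52 to 2.62 in iTreg and from 2.12 to 2.48 in nTreg, so the nTreg arrays overlapped those of ex-iTreg in range. Psmb8 minus Psmb5 changed by -0.09, -0.08 and 0.01, and its ex-iTreg arrays, at 1.49 to 1.57, lay under those of iTreg and overlapped those of nTreg, at 1.57 to 1.66. Levels of different probe sets are not comparable, so only the changes are read.

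Technical measures and markers of other cells also differed between the populations. The poly-A controls, bacterial RNAs added before labelling, averaged 9.70 and 9.83 in ex-iTreg, 12.52 and 12.48 in iTreg and 11.06 and 11.14 in nTreg on the log2 scale. The 3' minus 5' signal of Gapdh, a measure of RNA and labelling length, was 0.00 and -0.04 in ex-iTreg, 0.38 and 0.51 in iTreg and 0.15 and 0.15 in nTreg. Both ran highest in iTreg and lowest in ex-iTreg, whereas the summed myeloid markers were highest in iTreg and lowest in nTreg. Of 12 tested myeloid markers, 11 were lower in ex-iTreg than in iTreg. In ex-iTreg 5 were higher than in nTreg, and in iTreg 11 were higher than in nTreg. These were 91.7%, 41.7% and 91.7% of the 12, beside 36.6%, 37.4% and 29.1% of all genes, so the second was near the background. Macrophages also express the inducible subunits, as do B cells. Of the B cell markers, Cd79b, Ms4a1 and the summed list were lowest in ex-iTreg and highest in nTreg. Pax5, under the filter level in every group, ran the other way, with means of 5.00 in ex-iTreg, 4.77 in iTreg and 4.66 in nTreg. Cd79a, also under that level, was highest in iTreg. The part of these measures and markers in the results on members and pathway lists was not tested.

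Most constitutive genes differed little between the 3 populations on the probe sets used. Of the 43, the filter passed 41. The germ-cell alpha subunit Psma8 and the thymic beta subunit Psmb11 read 3.75 to 4.52 and were not tested. In ex-iTreg against iTreg 4 rose and 1 fell, or 5 of 41, beside the 36.6% of all genes. In ex-iTreg against nTreg 6 rose and 0 fell, beside 37.4%. There 10 of the 41 had an unadjusted p under 0.05 in either direction, beside 5183 of the 11015 genes. In iTreg against nTreg 3 rose and 1 fell, beside 29.1%. Medians of the 41 differences were 0.02, 0.04 and 0.05, beside -0.02, 0.03 and 0.04 for all genes. The 95% interval lay within 1.5-fold for 40, 38 and 39 of the 41 members in these comparisons, and for 8395, 8157 and 8887 of the 11015 genes. The median gap between pools of 1 population was 0.04 in ex-iTreg, 0.04 in iTreg and 0.07 in nTreg. The calls depended on how limma modelled the spread. With a spread that varies with intensity, the constitutive calls were 9 higher and 5 lower, 12 higher and 3 lower, and 10 higher and 2 lower, in the same order of comparisons. In either direction these were 14, 15 and 12 of the 41, where the same model called 43.8%, 44.5% and 38.5% of all genes.

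**Figure D2:**
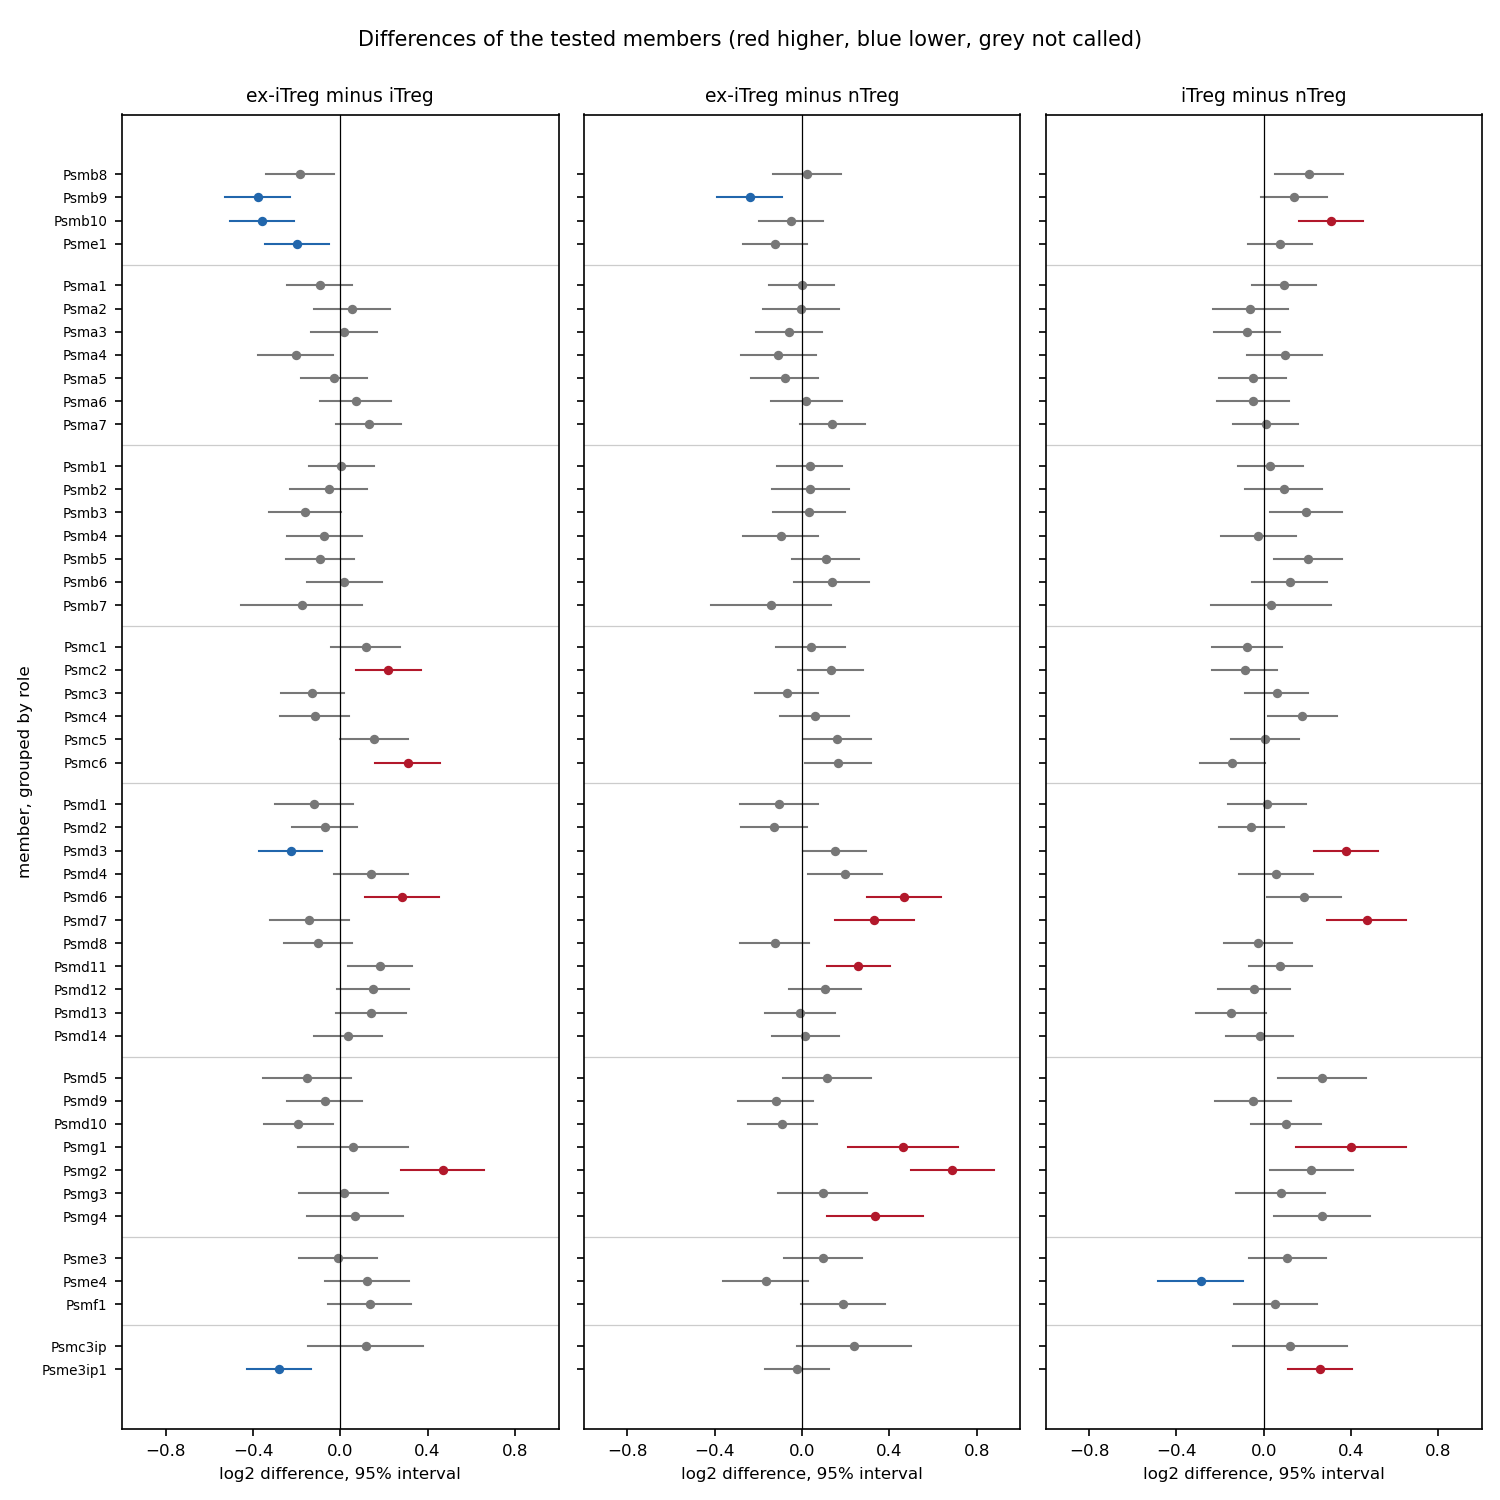
Log2 difference with its 95% interval for each of the 47 tested members, from limma with n = 2 arrays per group, in 3 panels for the 3 comparisons. Grey lines part the roles (inducible, alpha ring, beta ring, ATPases, other regulatory particle subunits, assembly chaperones, other regulators, interacting proteins), red is called higher and blue called lower. Most intervals cross 0, and the largest difference is that of Psmg2 in ex-iTreg minus nTreg, 0.69.

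In the rings of the core no gene passed on the probe set used. Dimmer probe sets of Psma1, Psma3, Psma6 and Psmb1 passed in at least 1 comparison. With the ones used, none of the 7 tested alpha ring genes, which gate the entrance, passed in any comparison (limma). The same held for the 7 tested constitutive beta ring genes. At an unadjusted p under 0.05 the alpha ring had 1, 0 and 0 genes and the beta ring 0, 0 and 2 in the 3 comparisons. Among all 11015 genes, 5064, 5183 and 4631 had such a p. Alpha ring differences of ex-iTreg minus iTreg ran from -0.20 for Psma4 (limma adjusted p = 0.067) to 0.13 for Psma7. Beta ring differences there ran from -0.18 to 0.02. All 14 intervals lay within 1.5-fold in each comparison. With the intensity trend Psma4, Psma7 and Psmb3 passed in ex-iTreg against iTreg, Psma7 and Psmb6 in ex-iTreg against nTreg, and Psmb3 and Psmb5 in iTreg against nTreg.

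Among the 6 ATPases of the regulatory particle, which unfold and thread the substrate, Psmc6 and Psmc2 rose in ex-iTreg against iTreg. These were 33.3% of the 6, beside 36.6% of all genes. Psmc6 read 10.51 and 10.47 in ex-iTreg, 10.19 and 10.17 in iTreg and 10.31 and 10.34 in nTreg. Its populations did not overlap and iTreg was lowest. The ex-iTreg minus iTreg difference was 0.31 ± 0.06 (limma adjusted p = 0.0102), and its other 2 probe sets also rose, by 0.52 and 0.37. The call was lost without ex-iTreg pool 1 or iTreg pool 2, at adjusted p between 0.0551 and 0.0677. Psmc2 read 11.28 and 11.33 in ex-iTreg, 11.08 and 11.10 in iTreg and 11.18 and 11.17 in nTreg. It had the same order and a difference of 0.22 ± 0.06 (limma adjusted p = 0.0333), with a second probe set at 0.33. Without any 1 ex-iTreg or iTreg pool the adjusted p for Psmc2 was between 0.0934 and 0.165. In the other comparisons no ATPase passed, with 2 in ex-iTreg against nTreg and 1 in iTreg against nTreg at an unadjusted p under 0.05. Among all 11015 genes, 5183 and 4631 had such a p there.

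Of the 11 other regulatory particle subunits, 4 passed in at least 1 comparison (Psmd3, Psmd6, Psmd7 and Psmd11), all from the lid that holds the deubiquitinase. By comparison, 1 rose and 1 fell in ex-iTreg against iTreg, 3 rose in ex-iTreg against nTreg and 2 rose in iTreg against nTreg. These were 18.2%, 27.3% and 18.2% of the 11, under the 36.6%, 37.4% and 29.1% of all genes. Psmd6, a lid scaffold subunit, read 10.96 and 11.01 in ex-iTreg, 10.72 and 10.68 in iTreg and 10.58 and 10.46 in nTreg. No populations overlapped, with ex-iTreg highest and nTreg lowest. Psmd6 rose by 0.28 ± 0.07 in ex-iTreg against iTreg (limma adjusted p = 0.0211) and by 0.47 ± 0.07 against nTreg (limma adjusted p = 0.0031). The second of these passed in all 15 alternatives. The first was lost without any 1 ex-iTreg or iTreg pool, at adjusted p between 0.069 and 0.112. Its second probe set rose by 0.27 and 0.32.

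Psmd3, another lid scaffold subunit, read 8.69 and 8.71 in ex-iTreg, 8.92 and 8.94 in iTreg and 8.55 and 8.55 in nTreg. iTreg was highest and nTreg lowest, and the populations did not overlap. It rose by 0.38 ± 0.06 in iTreg against nTreg (limma adjusted p = 0.00632), in all 15 alternatives. In ex-iTreg against iTreg it fell by 0.23 (SE 0.06, limma adjusted p = 0.027), a call lost without any 1 ex-iTreg or iTreg pool at adjusted p between 0.0916 and 0.127.

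Psmd7, the inactive partner of the deubiquitinase Psmd14, read 8.77 and 8.64 in ex-iTreg, 8.86 and 8.83 in iTreg and 8.43 and 8.33 in nTreg. The nTreg pools lay under all others. Psmd7 rose by 0.47 ± 0.08 in iTreg against nTreg (limma adjusted p = 0.00631), in all 15 alternatives. It also rose by 0.33 ± 0.08 in ex-iTreg against nTreg (limma adjusted p = 0.0159). The ex-iTreg call was lost without ex-iTreg pool 1 or nTreg pool 2, at adjusted p between 0.0652 and 0.0993. On its second tested probe set the ex-iTreg and iTreg differences from nTreg were 0.26 and 0.16, and neither passed.

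Psmd11, whose product stabilizes the assembled complex, read 11.09 and 11.08 in ex-iTreg, 10.90 and 10.92 in iTreg and 10.82 and 10.83 in nTreg. The ex-iTreg pools were highest and no populations overlapped. It rose by 0.26 ± 0.06 in ex-iTreg against nTreg (limma adjusted p = 0.0171), a call lost without ex-iTreg pool 1, ex-iTreg pool 2 or nTreg pool 1, at adjusted p between 0.0522 and 0.091. Of its 4 other tested probe sets 3 had the same direction and 1 was called there, while 1 fell by 0.32 in ex-iTreg against iTreg. The deubiquitinase Psmd14 itself read 11.24 to 11.33 over all arrays.

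On the probe sets used, assembly chaperones held the largest member difference of each ex-iTreg comparison. They build the core and the regulatory particle and then leave. Of the 7 tested, 1, 3 and 1 passed in the 3 comparisons, all of them higher. These were 14.3%, 42.9% and 14.3%, beside 36.6%, 37.4% and 29.1% of all genes. Psmg2 pairs with Psmg1 to assemble the alpha ring. Psmg2 read 9.71 and 9.85 in ex-iTreg, 9.36 and 9.26 in iTreg and 9.13 and 9.05 in nTreg. The ex-iTreg pools were highest and the nTreg pools lowest, with no overlap. Psmg2 rose by 0.69 ± 0.08 in ex-iTreg against nTreg (limma adjusted p = 0.001), or 1.61-fold. On the probe sets used, Psmg2 was the only member past 1.5-fold in any comparison. In ex-iTreg against iTreg it rose by 0.47 ± 0.08 (limma adjusted p = 0.00536). Both calls passed in all 15 alternatives, and the second tested probe set rose by 0.54 and 0.32 in these comparisons. In iTreg minus nTreg the difference was 0.22 (limma adjusted p = 0.085).

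Psmg1 read 9.24 and 9.14 in ex-iTreg, 9.15 and 9.11 in iTreg and 8.87 and 8.59 in nTreg. The nTreg pools were lowest, as for its partner Psmg2, but here the ex-iTreg and iTreg pools overlapped. Psmg1 rose by 0.46 ± 0.10 in ex-iTreg against nTreg (limma adjusted p = 0.0157) and by 0.40 ± 0.10 in iTreg against nTreg (limma adjusted p = 0.0323). Leaving out ex-iTreg pool 1 or pool 2 ended the first, at adjusted p between 0.0525 and 0.0925. The second was lost without any array but nTreg pool 1, at adjusted p between 0.0577 and 0.12, and its difference moved between 0.26 and 0.54. Psmg4, of the other chaperone pair, read 9.30 and 9.45 in ex-iTreg, 9.23 and 9.39 in iTreg and 9.10 and 8.98 in nTreg. It rose by 0.33 ± 0.09 in ex-iTreg against nTreg (limma adjusted p = 0.0305), which was lost without ex-iTreg pool 1, ex-iTreg pool 2 or nTreg pool 2, at adjusted p between 0.055 and 0.162. Psmg3, the partner of Psmg4, read 8.48 to 8.69 over all arrays and passed in no comparison. Psmd5, Psmd9 and Psmd10, chaperones of the ATPase ring, did not pass either, with Psmd5 at 0.27 in iTreg minus nTreg (limma adjusted p = 0.058).

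**Figure D3:**
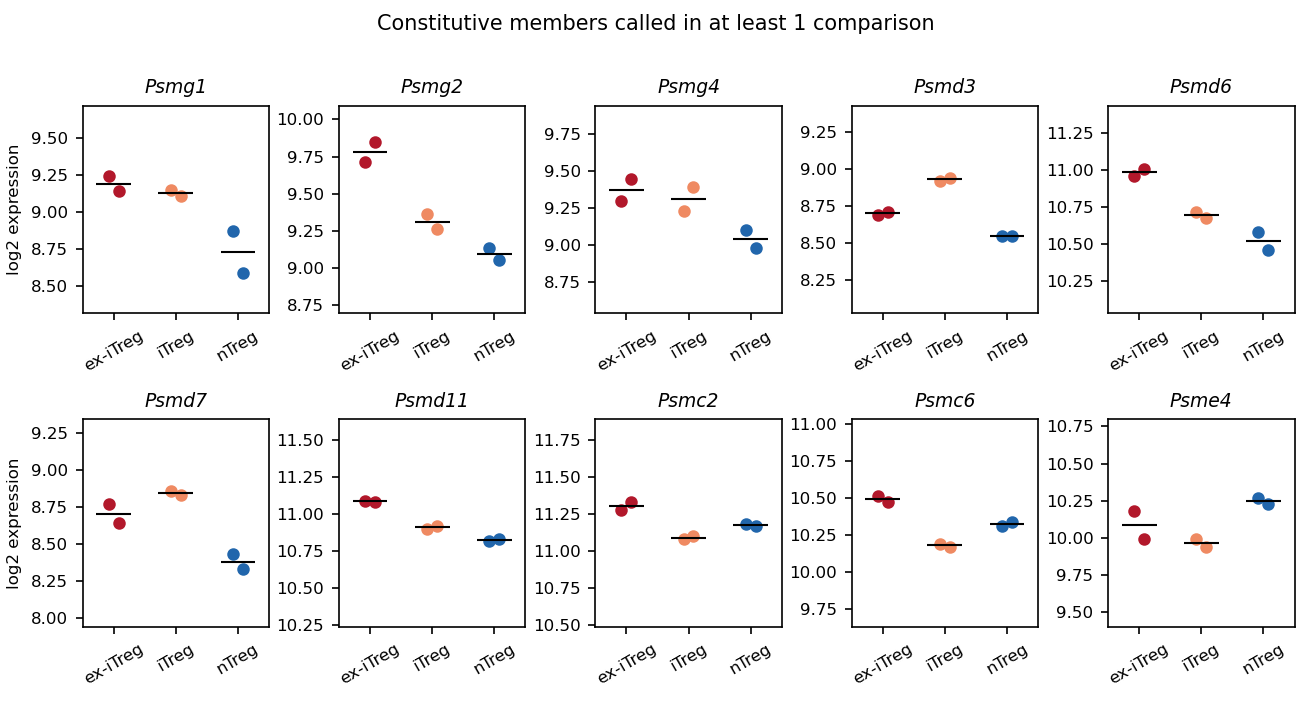
Log2 expression of the 10 constitutive members called in at least 1 comparison, in ex-iTreg, iTreg and nTreg. Points are single arrays and lines are means of 2 pools, with the same log2 span in every panel. Without overlap of pools, Psmg2, Psmd6, Psmd11, Psmc2 and Psmc6 are highest in ex-iTreg, Psmd3 and Psmd7 in iTreg, and Psme4 in nTreg. Lowest in nTreg are Psmg1, Psmg2, Psmg4, Psmd3, Psmd6, Psmd7 and Psmd11.

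Psme4, the large cap protein that opens the core for acetylated histones and small proteins, read 10.18 and 9.99 in ex-iTreg, 9.99 and 9.94 in iTreg and 10.27 and 10.23 in nTreg. The nTreg pools were highest. Psme4 fell by 0.29 in iTreg against nTreg (SE 0.08, limma adjusted p = 0.0395), and all 5 other tested probe sets had the same direction, 4 of them called. In ex-iTreg minus nTreg the probe set used stood at -0.17 and did not pass (limma adjusted p = 0.155), while 4 of the 5 others fell, by 0.63, 1.31, 0.44 and 0.30 (limma adjusted p between 0.00986 and 0.0257). The fifth, at 0.08 there, rose by 0.71 in ex-iTreg against iTreg (limma adjusted p = 0.00255). The iTreg against nTreg call on the probe set used was lost without any 1 iTreg or nTreg pool, while its difference stayed between -0.31 and -0.27. Psmf1, an inhibitor of the core in vitro, read 8.54 and 8.58 in ex-iTreg, 8.51 and 8.34 in iTreg and 8.34 and 8.41 in nTreg. Its pools overlapped between iTreg and nTreg, and it passed in no comparison. Of the 2 interacting proteins kept apart, Psme3ip1, which binds Psme3, fell by 0.28 in ex-iTreg against iTreg (SE 0.06, limma adjusted p = 0.0136) and rose by 0.26 in iTreg against nTreg (limma adjusted p = 0.0233). It read 9.18 and 9.22 in ex-iTreg, 9.50 and 9.47 in iTreg and 9.23 and 9.22 in nTreg, which is high in iTreg only. The fall was lost without any 1 ex-iTreg or iTreg pool (adjusted p 0.0553 to 0.0817) and the rise without any 1 of the 6 arrays (adjusted p 0.0507 to 0.0979). The recombination factor Psmc3ip read 5.66 to 6.09 over all arrays and did not pass.

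For some constitutive genes a dimmer probe set gave another answer than the one used. Of the 41 other tested probe sets of members, 11, 17 and 13 had the opposite sign in the 3 comparisons, among many small differences. Psma1 differed by -0.09 in ex-iTreg minus iTreg on its brightest probe set, while 2 others rose by 1.18 and 0.83 there (limma adjusted p = 0.00202 and 0.00195) and by 1.04 and 0.76 in ex-iTreg against nTreg. A second probe set of Psmd9 rose by 0.75 in ex-iTreg against iTreg (limma adjusted p = 0.00419), against -0.07 on the one used. For Psma3, at 0.02 there, a dimmer probe set rose by 0.85 in ex-iTreg against iTreg (limma adjusted p = 0.000414) and fell by 1.07 in iTreg against nTreg (limma adjusted p = 0.000306). Smaller called differences against the sign of the probe set used were found for Psmb1 (-0.28 in ex-iTreg minus iTreg), Psmd13 (0.35 in ex-iTreg minus nTreg) and Psmf1 (-0.41 in iTreg minus nTreg). Which transcript form each of these probe sets reads was not tested.

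Several genes on the path to class I presentation had larger differences than the inducible subunits that feed it. Of 12 genes of class I antigen processing, 2 rose and 5 fell in ex-iTreg against iTreg (limma). Against nTreg, 2 rose and 6 fell in ex-iTreg and 0 passed in iTreg. These were 58.3%, 66.7% and 0% of the list, beside 36.6%, 37.4% and 29.1% of all genes. In iTreg against nTreg 1 of the 12 had an unadjusted p under 0.05, beside 4631 of all 11015 genes. The median differences were -0.15, -0.19 and 0.07, against -0.02, 0.03 and 0.04 over all genes. Tap1, the peptide transporter subunit encoded between Psmb9 and Psmb8, read 10.37 and 10.26 in ex-iTreg, 11.05 and 11.02 in iTreg and 10.93 and 10.97 in nTreg. The ex-iTreg pools lay well under the rest, by 0.72 ± 0.07 against iTreg (limma adjusted p = 0.000635) and 0.64 ± 0.07 against nTreg. Tap2 differed by -0.20 and -0.09 and did not pass. Tapbpl and Tapbp, which edit the peptides loaded on class I, fell by 0.93 and 0.46 in ex-iTreg against iTreg and by 0.85 and 0.39 against nTreg. The chaperone Calr fell by 0.34 and 0.24. Pdia3 went the other way and rose by 0.32 and 0.38, while Nlrc5 differed by -0.01 and -0.03 and did not pass. The trimming peptidase Erap1 also rose, by 0.26 and 0.38, but with the mean of its probe sets the first turned to -0.052. H2-D1, a class I heavy chain, fell by 0.29 in ex-iTreg against nTreg, but stood at 0.036 when probe sets open to cross-hybridization were left out.

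Of 10 tested interferon gamma signalling genes, 2 rose and 5 fell in ex-iTreg against iTreg, 1 rose and 6 fell in ex-iTreg against nTreg, and 1 rose and 2 fell in iTreg against nTreg. These were 70%, 70% and 30% of the list beside the same shares of all genes, so the last was near the background. The median differences were -0.48, -0.48 and -0.06. Irf1, the factor that drives the inducible subunits after interferon, read 11.33 and 11.32 in ex-iTreg, 12.35 and 12.36 in iTreg and 12.47 and 12.46 in nTreg. It fell by 1.03 ± 0.06 in ex-iTreg against iTreg and by 1.14 ± 0.06 against nTreg. Irf8 fell by 1.56 and 1.59 and Irf9 by 0.92 and 0.81 in these comparisons, with no call between iTreg and nTreg. So Irf1, Irf8, Irf9, Tap1, Tapbp and Tapbpl had iTreg and nTreg near each other. The inducible members were divided. Psmb8 and Psmb10 had nTreg nearer ex-iTreg, at 0.02 and -0.05 in ex-iTreg minus nTreg. Psmb9 and Psme1 had nTreg nearer iTreg, at 0.14 and 0.08 in iTreg minus nTreg beside -0.24 and -0.12 in ex-iTreg minus nTreg. Jak2, a kinase of the interferon gamma receptor, rose by 0.60 in ex-iTreg against iTreg and fell by 0.80 in iTreg against nTreg. The receptor chain Ifngr1 fell by 0.26 in ex-iTreg against nTreg and by 0.44 in iTreg against nTreg. The other chain, Ifngr2, went the other way and rose by 0.61 and 0.62 in ex-iTreg against iTreg and nTreg. Jak1, the other kinase, rose by 0.24 in iTreg against nTreg. In ex-iTreg minus iTreg it stood at -0.16 on the probe set used and at 0.27 over the mean of its probe sets.

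Of 16 tested proteasome partners (shuttles, deubiquitinases and regulators of subunit genes), 3 rose and 3 fell in ex-iTreg against iTreg, 4 rose and 2 fell in ex-iTreg against nTreg, and 4 rose and 0 fell in iTreg against nTreg. These were 37.5%, 37.5% and 25% of the list, near the 36.6%, 37.4% and 29.1% of all genes. The median differences were 0.09, 0.07 and 0.01, beside -0.02, 0.03 and 0.04 for all genes. Zfand2a, a stress-induced protein that binds the regulatory particle, read 11.87 and 11.79 in ex-iTreg, 10.02 and 10.03 in iTreg and 9.72 and 9.62 in nTreg. It was far higher in ex-iTreg, by 1.80 ± 0.07 against iTreg and 2.16 ± 0.07 against nTreg, and higher by 0.36 in iTreg against nTreg. Uchl5, a deubiquitinase of the regulatory particle, rose by 0.44 and 0.36 in ex-iTreg against iTreg and nTreg. Ngly1, the deglycosylase that activates the proteasome gene regulator Nfe2l1, rose by 0.45 and 0.49. Nfe2l1 itself fell by 0.34 in ex-iTreg against iTreg and rose by 0.34 in iTreg against nTreg. The oxidative stress factor Nfe2l2 read 8.31 and 8.25 in ex-iTreg, 8.08 and 8.11 in iTreg and 7.71 and 7.71 in nTreg, and rose by 0.57 in ex-iTreg against nTreg and 0.39 in iTreg against nTreg. Ubqln4, a ubiquitin shuttle, fell by 0.30 in ex-iTreg against iTreg and rose by 0.33 in iTreg against nTreg. The segregase Vcp fell by 0.27 and 0.39 in ex-iTreg against iTreg and nTreg. Pomp, the core's maturation factor, differed by -0.18, -0.16 and 0.02 and did not pass.

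**Figure D4:**
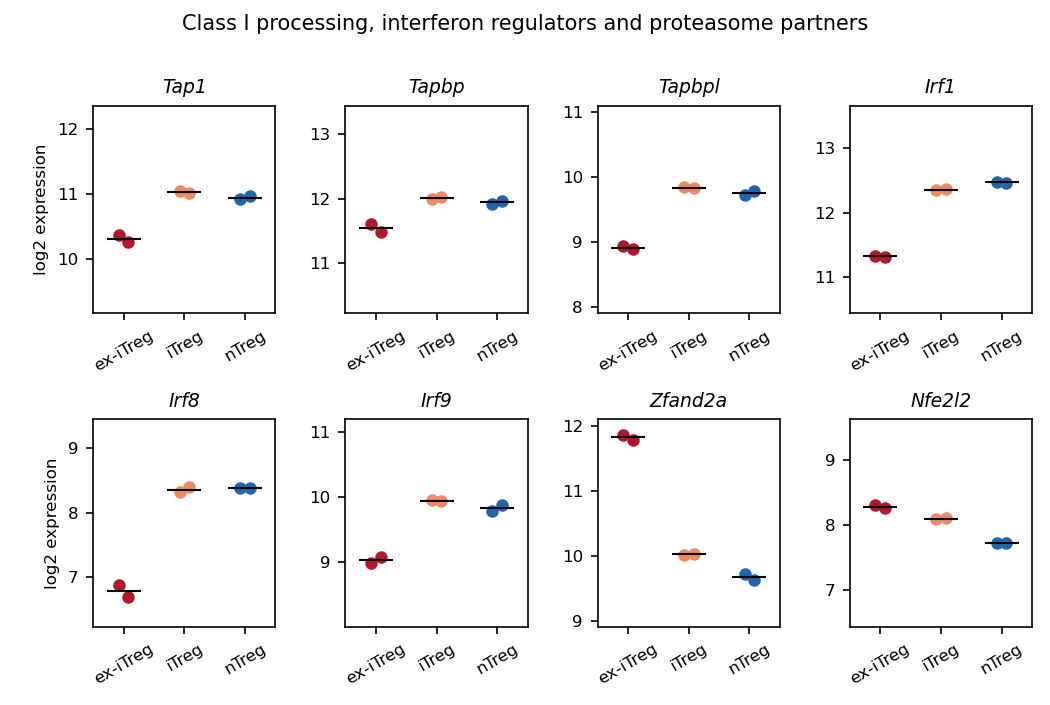
Log2 expression of 3 class I processing genes, 3 interferon regulatory factors and 2 proteasome partners in ex-iTreg, iTreg and nTreg. Points are single arrays, lines are means of 2 pools, and every panel has the same log2 span, wider than in the plots of members. Tap1, Tapbp, Tapbpl, Irf1, Irf8 and Irf9 are lowest in ex-iTreg, and Zfand2a and Nfe2l2 are highest there.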

How the data were processed

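The deposited table gives a log2 value for every probe set on each array. Per the submitters' processing notes the authors used RMA, with its program and version not given in the sources used here. RMA shares information across arrays and compresses differences of dim and saturated probe sets. Probe sets were named from the platform annotation, and members were matched to RefSeq by Entrez identifier. Of 45101 probe sets, 23484 non-control ones were above the median (5.48) in at least 2 of 6 arrays and entered 1 limma model (limma 3.58.1, R 4.3.3, lmFit and eBayes, 1 mean per group). It had 3 residual and 3.37 prior degrees of freedom, with Benjamini-Hochberg adjustment across these probe sets. An exact test of 2 arrays against 2 cannot go below a two-sided p of 0.333, so calls rest on limma's pooled spread. The members and lists were chosen with earlier results of these data known. Named genes were the inducible members, their counterparts, Psme4 and Psmf1. Further ones were up to 6 called members per direction and comparison with the largest differences, and the 3 list genes with the highest absolute t. Psmd14, Psmg3, Tap2, Pdia3, Nlrc5, Ifngr2, Vcp, Pomp, Nfe2l1, Cd79b, Ms4a1 and the remaining members named with values were added after their values were seen. The model was checked on simulated data. The alternatives covered filters, normalization, probe set choice, the model of the spread, a replicate block and each array left out.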

Additional observations from a re-analysis of the deposited data

How the results depend on the processing

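With 2 arrays per group the counts of called members moved easily, while their signs mostly did not. Constitutive calls in ex-iTreg against iTreg (5) became 2 with no filter, 11 with the mean of a gene's probe sets, 14 with an intensity trend and 3 with the replicate block. In ex-iTreg against nTreg (6) they became 15 with the trend, and in iTreg against nTreg (4) they became 2 with no filter, 9 with the mean of probe sets and 12 with the trend. Inducible calls in ex-iTreg against nTreg (1) became 0 with no filter and 2 with the trend. In iTreg against nTreg (1) they became 2 with quantile normalization, 2 with the mean of probe sets and 3 with the trend. Calls among the 38 genes of the pathway lists in iTreg against nTreg (7) became 14 with the trend. Leaving out 1 array at a time, with a lone array taken to vary like the other groups, gave 1 to 5, 2 to 6 and 2 to 3 constitutive calls in the 3 comparisons in the order above. It gave 2 in each case, then 0 to 1 and 0 to 1 inducible calls, and 14 to 20, 15 to 21 and 3 to 6 list calls. With the mean of probe sets, signs turned for Psma1 (0.64 in ex-iTreg minus iTreg, 0.60 in ex-iTreg minus nTreg), Psmd9 (0.30), Erap1 (-0.052) and Jak1 (0.27), the last 3 in ex-iTreg minus iTreg. H2-D1 turned to 0.036 in ex-iTreg minus nTreg without cross-hybridizing probe sets. The cause was not tested. With no filter the calls of Psme1, Psmd6, Psmc2, Psmd3 and, in the nTreg comparisons, Psmb9, Psmg4, Psmd11, Psme4, Psmg1 and Psme3ip1 were lost, where more probe sets entered the adjustment. The replicate block ended the ex-iTreg against iTreg calls of Psme1, Psmc2 and Psmd3, and median centring those of Psme1 and Psmd3. The pool numbers did not pair the arrays (correlations of deviations -0.04, -0.09 and -0.01), and the replicate block moved no other count by over 1.5 times.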
